A study of Mus musculus with 8 samples.

Results

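Integrins are the cell surface receptors that hold a cell to its matrix, and laminins are the main cell-binding proteins of the basement membrane, the sheet of matrix on which epithelial cells sit. The genes described here are the 37 of 25237 in the deposited table whose names follow the integrin alpha, integrin beta and laminin chain symbols (Itga, Itgb, Lama, Lamb and Lamc). They comprise 26 integrin and 11 laminin genes. All were selected by name, and no measured value enters that naming rule. The set itself was chosen with earlier results of these data known.

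The signal came from CUT&Tag, an assay in which an antibody directs a DNA-cutting transposase to the histone mark it binds, and the freed fragments are sequenced. The cells were mouse pancreatic tumour cells on a C57BL/6 background, in which Setd2, the methyltransferase that trimethylates lysine 36 of histone H3 (H3K36me3), was knocked out (KO) or wild type (WT). The 8 groups were H3K36me3 over gene bodies in KO and in WT, H3K27ac at promoters in KO and in WT, H3K27ac at promoters in KO and in WT with the word vitro in the title, and H3K27me3 at promoters in KO and in WT. Each group had 1 library, so no difference below has a replicate check and no p-value could be computed.

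The labels call every sample cultured, whereas the title of the series describes sorting from orthotopic tumours. The H3K27ac pair that lacks the word vitro is therefore called the unmarked pair, and the other the vitro pair. The sources used here do not give how the knockout was made, the number of cell clones or any other tumour-driving alleles. Read depth is unknown, because the values are mean signal per base (printed here as signal per kilobase of promoter or gene body) with no counts. In material profiled as a bulk, fewer cells carrying a mark and less mark per cell cannot be told apart. The Setd2 gene-body H3K36me3 was 2.32 per kilobase in KO and 2.38 in WT, both too low to be read here. Its promoter H3K27ac was 25.1 in KO, against 15.6 in WT, in the unmarked pair, and 18.8 in KO, against 19.4 in WT, in the vitro pair. Both differences were under 1.5-fold on the scale defined below. Promoter H3K27me3 of Setd2 was 6.05 in KO, against 2.41 in WT. These values do not read the deletion itself, so they check no genotype. Promoter H3K27ac of the 7 ductal and epithelial markers summed to 326 in KO, against 181 in WT, in the unmarked pair, and to 492 in KO, against 453 in WT, in the vitro pair. Krt8 and Krt19, keratins of ductal cells, each exceeded 35 in all 4 H3K27ac libraries, while Epcam, an epithelial adhesion protein, stayed between 2.57 and 11.8. In the vitro pair Krt7, another ductal keratin, had 14.4 in KO, against 40.6 in WT, and Cdh1, the epithelial cadherin, had 5.72 in KO, against 24.0 in WT, so 2 of the 7 markers were past 1.5-fold lower in KO there and 1, Sox9, was higher. In H3K27me3, 6 of the 7 were past 1.5-fold higher in KO. The median over all genes differed between libraries. It was 8.33 in KO against 7.54 in WT for unmarked H3K27ac, 6.69 in KO against 6.90 in WT for vitro H3K27ac, 3.85 in KO against 3.23 in WT for H3K27me3, and 3.01 in KO against 2.73 in WT for H3K36me3.

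An integrin is a pair of an alpha and a beta subunit, and the alpha subunit largely sets the ligand: laminins, collagens, proteins with an RGD motif such as fibronectin, or counter-receptors on other cells. A laminin is a trimer of an alpha, a beta and a gamma chain, and basement membranes of ductal epithelium hold several such trimers. Promoter H3K27ac marks active promoters, promoter H3K27me3 is the Polycomb mark of repressed genes, and H3K36me3 is laid down along transcribed gene bodies. In epithelial tumours these receptors and their ligands are known for their roles in anchoring, migration and invasion.

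Promoters of 6 members are shown because they had the largest H3K27ac differences between KO and WT among members with a RefSeq promoter near the deposited start. In each pair of libraries these are the 2 highest ratios and the lowest: Lamb1, Itga5 and Itga10 in the unmarked pair, and Itgb7, Itga2b and Itga1 in the vitro pair. The sequences are RefSeq's for build GRCm38.p6, from 250 bases before to 50 bases after the annotated start, 5′ to 3′ on the strand of the gene. Capitals mark a match to GGGCGG, the core of the GC box bound by SP factors, or its reverse complement CCGCCC, and, in Itga10, CATTCC, the reverse complement of GGAATG, the TEAD core. They lie at chr12:31265043-31265342 on the plus strand (Lamb1), chr15:103366742-103367041 on the minus strand (Itga5), chr15:102231886-102232185 on the minus strand (Itgb7), chr11:102469834-102470133 on the minus strand (Itga2b), chr3:96645334-96645633 on the plus strand (Itga10) and chr13:115101915-115102214 on the minus strand (Itga1).
Lamb1: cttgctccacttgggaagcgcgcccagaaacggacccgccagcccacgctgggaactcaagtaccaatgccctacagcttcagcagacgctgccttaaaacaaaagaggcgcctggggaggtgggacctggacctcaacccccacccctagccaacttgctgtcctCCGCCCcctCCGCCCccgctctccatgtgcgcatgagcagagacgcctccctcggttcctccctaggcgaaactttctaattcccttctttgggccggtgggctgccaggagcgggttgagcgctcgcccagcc
Itga5: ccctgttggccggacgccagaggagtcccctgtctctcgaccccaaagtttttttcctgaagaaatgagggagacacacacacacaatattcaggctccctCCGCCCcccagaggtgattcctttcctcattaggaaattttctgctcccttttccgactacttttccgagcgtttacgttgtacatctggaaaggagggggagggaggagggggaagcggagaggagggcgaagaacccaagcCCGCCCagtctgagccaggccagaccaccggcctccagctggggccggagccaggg
Itgb7: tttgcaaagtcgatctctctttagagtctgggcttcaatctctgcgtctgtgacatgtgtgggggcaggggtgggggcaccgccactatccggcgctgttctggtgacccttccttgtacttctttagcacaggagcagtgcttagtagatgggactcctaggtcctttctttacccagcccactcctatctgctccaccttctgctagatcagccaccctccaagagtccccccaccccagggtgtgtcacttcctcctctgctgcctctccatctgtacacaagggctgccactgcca
Itga2b: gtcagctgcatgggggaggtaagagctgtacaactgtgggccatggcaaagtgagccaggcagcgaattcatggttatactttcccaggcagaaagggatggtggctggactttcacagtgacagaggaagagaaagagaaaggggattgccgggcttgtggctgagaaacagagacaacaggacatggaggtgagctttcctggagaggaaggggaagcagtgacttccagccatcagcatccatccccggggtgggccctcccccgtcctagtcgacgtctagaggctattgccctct
Itga10: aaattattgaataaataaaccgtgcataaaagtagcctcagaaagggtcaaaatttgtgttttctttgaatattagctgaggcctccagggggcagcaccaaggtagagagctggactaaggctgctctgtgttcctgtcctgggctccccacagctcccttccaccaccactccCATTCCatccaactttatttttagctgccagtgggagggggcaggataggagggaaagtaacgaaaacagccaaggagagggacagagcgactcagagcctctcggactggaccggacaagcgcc
Itga1: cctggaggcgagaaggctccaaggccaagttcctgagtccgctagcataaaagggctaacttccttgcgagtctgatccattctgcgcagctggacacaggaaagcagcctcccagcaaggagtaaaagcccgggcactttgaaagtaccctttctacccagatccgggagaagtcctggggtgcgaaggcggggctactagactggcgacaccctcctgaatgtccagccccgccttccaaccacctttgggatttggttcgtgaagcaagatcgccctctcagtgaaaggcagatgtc
Lamb1 and Itga5 each held 2 matches to the GC box, Itga10 held 1 to the TEAD core, and the other three held none of the motifs searched. CpG observed over expected was 0.615 in Lamb1 and 0.504 in Itga5, against 0.216 in Itgb7, 0.266 in Itga2b, 0.308 in Itga10 and 0.499 in Itga1.

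Of the members, 23 had a RefSeq promoter sequence and 21 of those lay within 3 kb of the start given in the deposited table. Among these 21, the GC box letters GGGCGG were present on either strand in 11, and in 35.9% of 27025 promoters of all genes. The AP-1 motif TGANTCA occurred in 1 of the 21 and in 7.93% of all promoters. The TEAD core GGAATG occurred in 2 and in 14.6% of all. The ETS motif CCGGAAG occurred in 1 and in 9.12% of all, and the GATA motif AGATAA in 1 and in 11.4% of all. None of these motifs contains another. The median GC content was 59.0% in member promoters and 52.7% in all promoters, and 8 of the 21 reached a CpG observed over expected of 0.6, against 36.5% of all promoters. A match here is only a run of letters, and an absent one concerns only this window.

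Promoter H3K27ac of the members spanned a wide range within each library. Their median was 13.0 in KO, against 10.8 in WT, in the unmarked pair, and 7.44 in KO, against 8.85 in WT, in the vitro pair. In the unmarked WT library the highest were Lama5, Itgb4 and Itga3. Lama5, an alpha chain of epithelial laminins, had 69.2 in KO, against 57.6 in WT, and 99.0 in KO, against 95.9 in WT, in the vitro pair. Itgb4, the hemidesmosomal beta subunit that pairs with Itga6, had 67.4 in KO, against 40.9 in WT, and 38.4 in KO, against 38.8 in WT, in the vitro pair. Itga3, the alpha subunit of a laminin receptor of epithelia, had 50.8 in KO, against 30.7 in WT, and 109 in KO, against 74.5 in WT, in the vitro pair. All 3 are epithelial genes, and each was above the 75th percentile of all genes in every H3K27ac library. The lowest in the same library were Itgad, Lama2 and Itgal. Itgad, a leukocyte alpha subunit, had 1.64 in KO, against 2.11 in WT. Its deposited start lies 19557 bases from RefSeq's gene start, so which promoter these values read is not known. Lama2, the alpha chain of muscle laminin, had 1.75 in KO, against 2.44 in WT. Itgal, the alpha subunit of the lymphocyte receptor LFA-1, had 4.16 in KO, against 2.72 in WT. Itgad and Lama2 did not reach the floor in either H3K27ac pair.

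**Figure D1:**
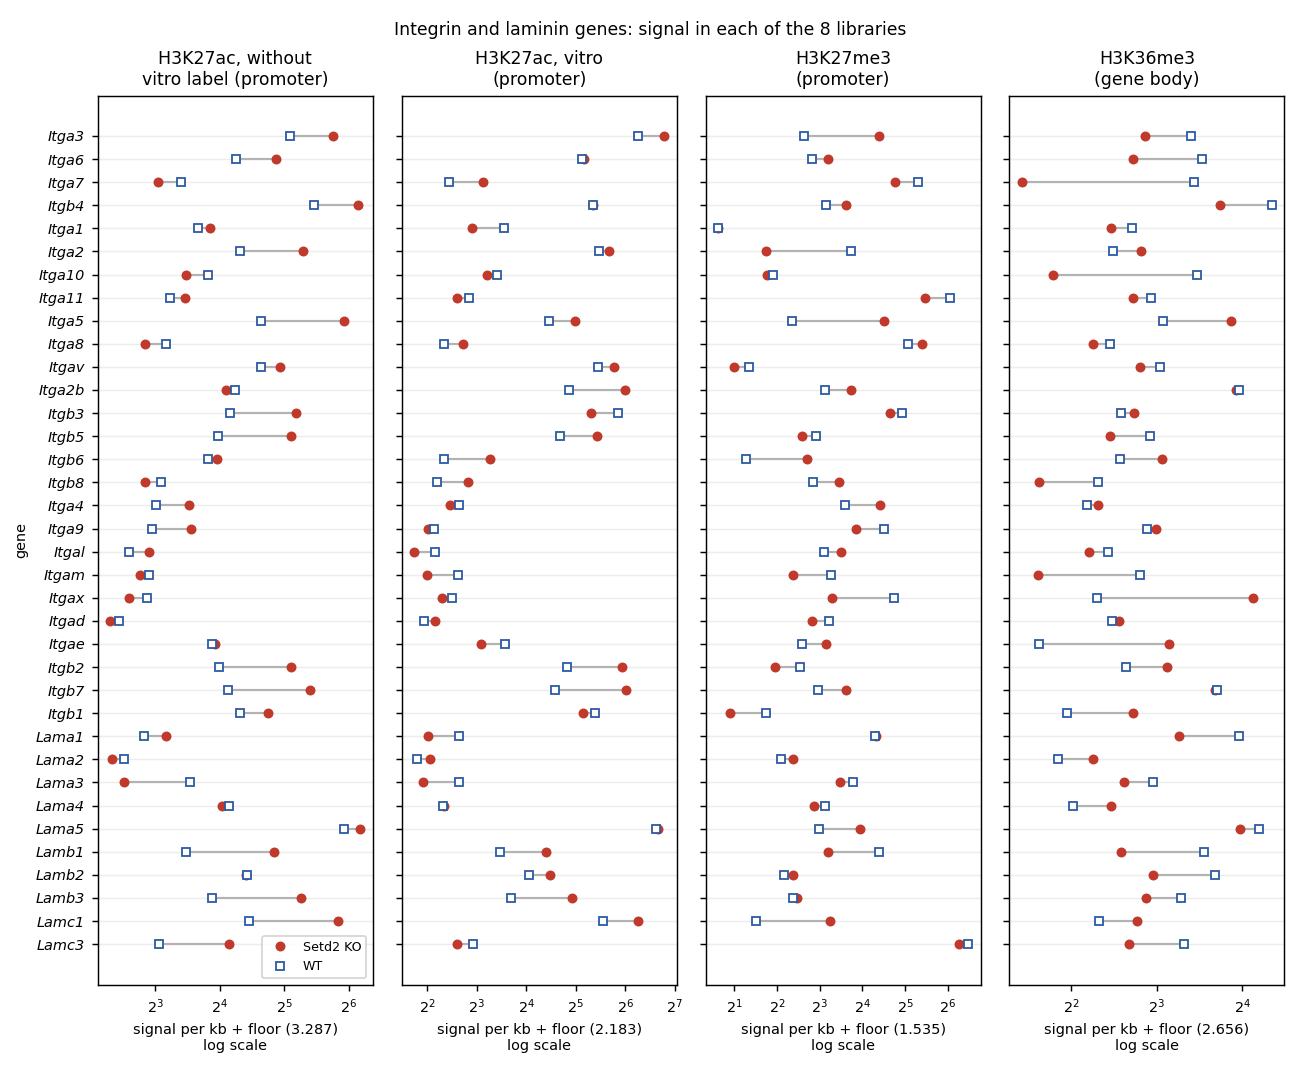
Signal per kilobase plus the floor of the pair (x axes, log scale) for the integrin and laminin genes named here, 1 gene per line, with filled circles for KO and open squares for WT in each of the 4 pairs of libraries. Lama5, Itgb4 and Itga3 lie far to the right in both H3K27ac panels, each above 30 before the floor is added, whereas Itgad and Lama2 stay below 2.5.

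For each pair of libraries the difference was computed as log2((KO + floor)/(WT + floor)). The floor was the 25th percentile of positive values, which was 3.29 for unmarked H3K27ac, 2.18 for vitro H3K27ac, 1.54 for H3K27me3 and 2.66 for H3K36me3. A gene was read only where its pair mean was at least that floor, and a difference of 1.5-fold or more on this scale was counted. Folds of low genes are understated on it.

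In the unmarked pair, 35 members reached the floor and 15 were at least 1.5-fold higher in KO, where 33.3% of 18672 genes were. Lama3 alone was at least 1.5-fold lower in KO, where 11.5% of all genes were. The member median log2 ratio was 0.35, beside 0.32 over all genes, so the members as a set were close to the general offset between these libraries. When both libraries were centred on the median of all genes, 10 members were higher and 5 lower, where 16.8% and 20.7% of all genes were. In the vitro pair 33 members reached the floor, 10 were higher in KO, where 10.9% of 18960 genes were, and 4 were lower, where 13.6% were. The member median there was 0.04, beside -0.07 over all genes. The share of members that were higher was above that of all genes, although the medians were close. Of the 10 higher members, Itgb8, Itgb6 and Itga7 had 2.41, 2.87 and 3.22 in WT, near the floor of 2.18. None of these calls was kept under every processing alternative, whereas the other 7 were kept in each alternative in which they were read. The vitro libraries had close medians and 75th percentiles, but the part of scaling in the share was not tested.

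In both H3K27ac pairs, 6 of the 33 members read in both were higher in KO: Itgb5, Itgb2, Itgb7, Lamb1, Lamb3 and Lamc1. Of 17300 genes read in both, 5.25% were higher in both. Lama3 was lower in both, as were 2.28% of all genes. No member passed 1.5-fold in opposite directions in the pairs. The 6 higher genes kept their calls in both pairs under every processing alternative in which they were read, and Lama3 did not.

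**Figure D2:**
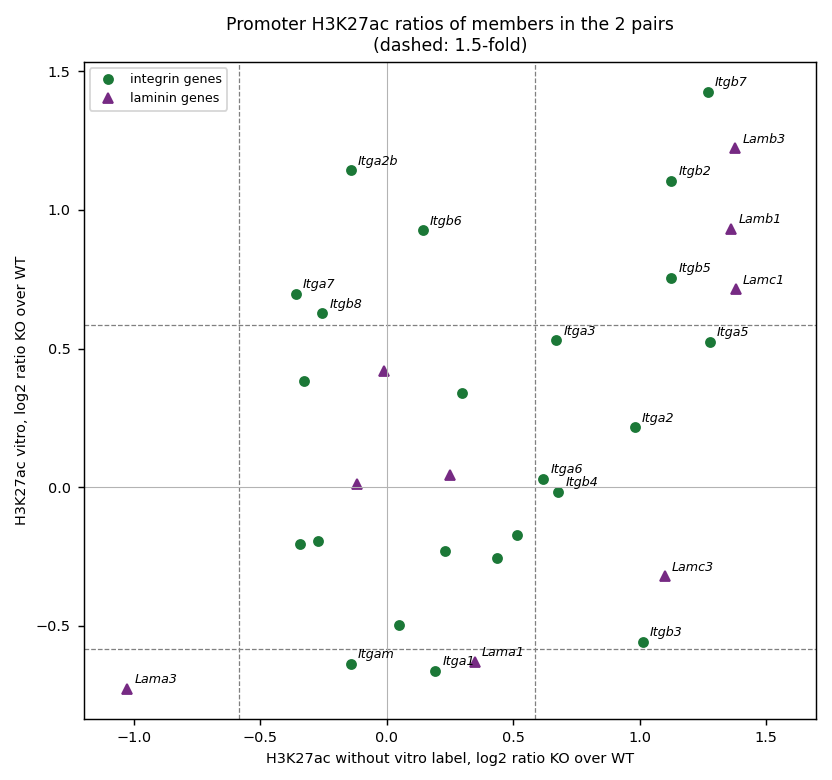
Log2 ratio of promoter H3K27ac, KO over WT, in the unmarked pair (x axis) against that in the vitro pair (y axis) for the named members read in both; dashed lines mark 1.5-fold, circles are integrins and triangles laminins. Itgb5, Itgb2, Itgb7, Lamb1, Lamb3 and Lamc1 lie past the upper line on both axes and Lama3 past the lower.

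The laminin beta and gamma chains held 3 of the 6 genes that were higher in both pairs. Lamc1 (chr1:153218922-153332786, mm10, minus strand), the gamma chain of most laminins, had 53.5 in KO, against 18.5 in WT (log2 ratio 1.38), and 74.8 in KO, against 44.8 in WT, in the vitro pair (0.71). Lamb1 (chr12:31265234-31329644, plus strand), its common beta partner, had 25.4 in KO, against 7.87 in WT (1.36), and 18.9 in KO, against 8.85 in WT, in the vitro pair (0.93). These genes encode chains that assemble together, and both KO libraries were above both WT libraries for each of them. The start of Lamb1 lies 142 bases from that of the predicted gene Gm32899, that of Itga8 lies 676 bases from E030013I19Rik and that of Lama5 1240 bases from Gm52542, so promoter signal of each pair cannot be told apart.

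Lamb3 and Lama3 encode a beta and an alpha chain of the epithelial laminin that anchors hemidesmosomes, and their ratios differed in sign. Lamb3 (chr1:193207699-193343878, plus strand) had 34.9 in KO, against 11.4 in WT (1.38), and 28.1 in KO, against 10.8 in WT, in the vitro pair (1.22). Lama3 had 2.41 in KO, against 8.32 in WT (-1.03), and 1.60 in KO, against 4.08 in WT, in the vitro pair (-0.73). Thus Lamb3 was higher in both KO libraries, and Lama3 was lower in both KO libraries. The KO values of Lama3 were under the floors of 3.29 and 2.18. Neither Lama3 call was kept under every processing alternative, whereas both Lamb3 calls were. The start given for Lamb3 in the deposited table lies 86654 bases from RefSeq's gene start, and that for Lama3 lies 402 bases from it. For neither gene do the sources used here say which start the promoter window used, so any other start of the gene is not covered.

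Lamc3, a gamma chain of restricted expression, had 14.5 in KO, against 4.99 in WT (1.10) in the unmarked pair, and 3.89 in KO, against 5.40 in WT (-0.32), in the vitro pair. Lama1, an alpha chain of early basement membranes, had 5.70 in KO, against 3.77 in WT (0.35), and 1.83 in KO, against 4.02 in WT, in the vitro pair (-0.63). In neither gene did the vitro pair repeat the direction of the unmarked pair. Lama4, Lama5 and Lamb2, the last a beta chain of muscle and kidney laminins, stayed under 1.5-fold in both pairs, with log2 ratios from -0.12 to 0.42.

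Among the integrins that bind RGD proteins, Itga5 and Itgb5 had the highest H3K27ac ratios in the unmarked pair, and Itga2b and Itgb6 in the vitro pair. Itgb5 (chr16:33829665-33949338, plus strand), a beta partner of Itgav in vitronectin binding, had 31.0 in KO, against 12.4 in WT (1.13), and 41.1 in KO, against 23.4 in WT, in the vitro pair (0.75). Itga5 (chr15:103344286-103366763, minus strand), the alpha subunit of the main fibronectin receptor, had 57.3 in KO, against 21.7 in WT, and 29.6 in KO, against 19.9 in WT, in the vitro pair (0.52). KO was above WT in each pair for both genes, although for Itga5 the vitro difference stayed under 1.5-fold. Itgb3, another beta partner of Itgav, had 32.9 in KO, against 14.6 in WT (1.01), and 37.4 in KO, against 56.1 in WT, in the vitro pair (-0.56). Itgb6, an epithelial partner of Itgav, had 12.3 in KO, against 10.8 in WT (0.14), and 7.44 in KO, against 2.87 in WT, in the vitro pair (0.93). Itgb8, a partner of Itgav that activates TGF-beta, had 3.83 in KO, against 5.21 in WT (-0.26), and 4.92 in KO, against 2.41 in WT, in the vitro pair (0.63). Itgav itself was under 1.5-fold in both pairs, at 27.2 in KO, against 21.5 in WT, and 53.0 in KO, against 41.4 in WT, in the vitro pair. The beta subunits named here as partners of Itgav therefore differed from one another and, except for Itgb5, between the pairs.

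Itga2b, the alpha subunit of the platelet fibrinogen receptor, had 13.9 in KO, against 15.6 in WT (-0.14) in the unmarked pair, and 61.8 in KO, against 26.8 in WT (1.14), in the vitro pair. The other 4 platelet and megakaryocyte markers did not follow it: in the vitro pair Ppbp had 27.2 in KO, against 26.9 in WT, Pf4 7.38 in KO, against 8.22 in WT, Gp9 6.98 in KO, against 8.28 in WT, and Gp1ba 7.09 in KO, against 11.6 in WT. None of these was at 0, and all 5 together, Itga2b included, summed to 110.4 in KO, against 81.7 in WT.

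Of the laminin-binding subunits, 3 of 4 were past 1.5-fold higher in KO in the unmarked pair, beside 33.3% of all genes. Log2 ratios there were 0.67 for Itga3, 0.62 for Itga6 and 0.68 for Itgb4. After centring on all genes they were 0.35, 0.30 and 0.36, all under 1.5-fold. For Itga3 and Itgb4 this direction turned under quantile normalization, to -0.0135 and -0.0532, and when the trend with signal level was removed, to -0.11 and -0.14. Itga6, with 26.0 in KO, against 15.7 in WT, and 33.7 in KO, against 32.9 in WT, in the vitro pair, was near equal there (0.03). The deposited start of Itga6 lies 41270 bases from RefSeq's gene start, so which promoter these values read is not known, as for Lamb3. Itga7, the muscle laminin receptor, had 4.93 in KO, against 7.26 in WT (-0.36), and 6.58 in KO, against 3.22 in WT, in the vitro pair (0.70). Only low levels of Itga7 were thus compared, and the pairs ran in opposite directions.

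Of the collagen receptors, Itga2, the epithelial one, had 35.9 in KO, against 16.6 in WT (0.98), and 49.1 in KO, against 42.0 in WT, in the vitro pair (0.22). Itga1 had 11.2 in KO, against 9.37 in WT (0.19), and 5.26 in KO, against 9.60 in WT, in the vitro pair (-0.66). Itga10 and Itga11, receptors of cartilage and of mesenchymal cells, stayed under 1.5-fold in both pairs, with log2 ratios from -0.34 to 0.23. Itgb1, the beta subunit shared by most of these receptors, was also under 1.5-fold, at 23.5 in KO, against 16.5 in WT (0.44), and 33.2 in KO, against 40.1 in WT, in the vitro pair (-0.26). Itga9, which binds tenascin and related ligands, had 8.49 in KO, against 4.44 in WT (0.61) in the unmarked pair and did not reach the floor in the vitro pair. Its relative Itga4 was under 1.5-fold in both pairs.

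Of the 7 subunits typical of leukocytes, Itgb2 and Itgb7 were higher in KO in both pairs. Itgb7 (chr15:102215995-102231944, minus strand), the beta subunit of gut-homing lymphocyte receptors, had 38.7 in KO, against 14.1 in WT (1.27), and 62.2 in KO, against 21.8 in WT, in the vitro pair (1.43). Itgb2 (chr10:77530252-77565708, plus strand), the common beta subunit of leukocyte receptors, had 31.2 in KO, against 12.5 in WT (1.13), and 58.8 in KO, against 26.1 in WT, in the vitro pair (1.11). Both beta subunits were above 30 in both KO libraries, whereas no leukocyte alpha subunit exceeded 11.9 in any H3K27ac library. Itgam, the myeloid alpha partner of Itgb2, had 3.51 in KO, against 4.21 in WT (-0.14), and 1.77 in KO, against 3.97 in WT, in the vitro pair (-0.64). Itgal, Itgax, Itgad and Itgae, the other leukocyte alpha subunits, had no difference of 1.5-fold in either pair in which they were read. Of the leukocyte markers that are no integrins, Ptprc, the pan-leukocyte gene, had 3.45 in KO, against 1.61 in WT, and 2.97 in KO, against 2.59 in WT, in the vitro pair. Cd68, a lysosomal gene of macrophages, had 46.0 in KO, against 16.2 in WT, and 45.5 in KO, against 30.1 in WT, in the vitro pair. Over the 9 leukocyte markers, of which Itgb2, Itgam and Itgal are members here, the sum was 99.6 in KO, against 65.5 in WT, and 120.1 in KO, against 79.1 in WT, in the vitro pair, and no marker was at 0. The part of leukocytes in the Itgb2 and Itgb7 differences was not tested.

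**Figure D3:**
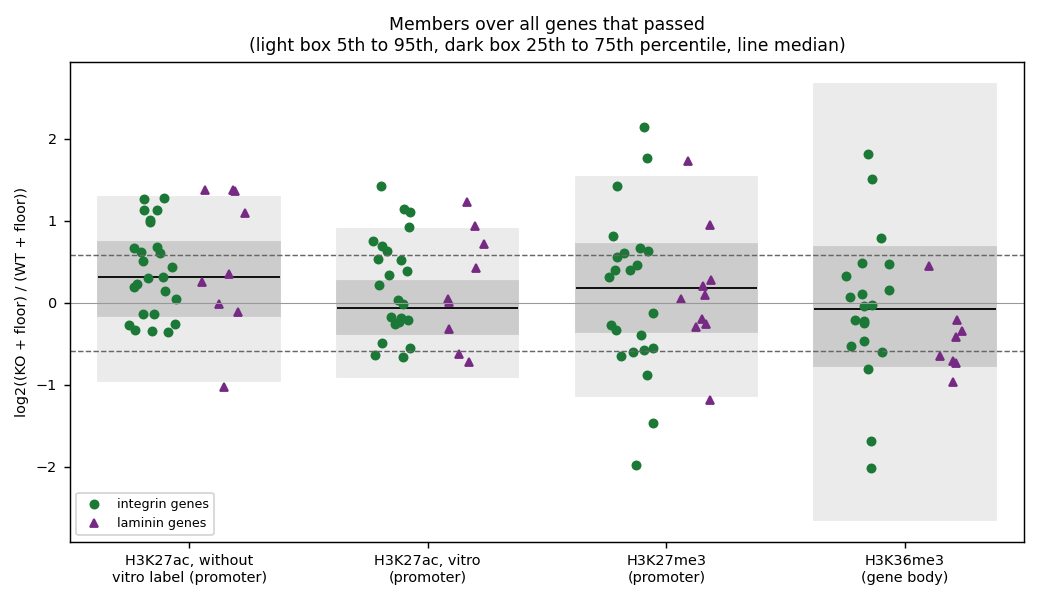
Log2 ratio of KO over WT (y axis) for the named members that reached the floor in each pair of libraries, with integrins as circles and laminins as triangles over boxes of all genes (5th to 95th and 25th to 75th percentile, line at the median); dashed lines mark 1.5-fold. Lama3 is the only point under the lower dashed line in the unmarked H3K27ac pair, and the highest H3K27me3 point is Itga5.

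Promoter H3K27me3 was read for 34 members, of which 9 were at least 1.5-fold higher in KO, where 30.1% of 19033 genes were, and 6 were lower, where 16.8% were. The member median log2 ratio was 0.07, beside 0.18 over all genes. Both shares lay close to those of all genes. Centring gave 6 higher and 8 lower, where 23.2% and 22.8% of all genes were. Quantile normalization gave 6 and 9, where 22.3% and 22.3% were, and taking out the level-dependent trend gave 7 and 9, where 22.3% and 21.3% were.

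The 2 largest H3K27me3 ratios belonged to integrin alpha subunits. Itga5 had 21.1 in KO, against 3.56 in WT, a ratio at the 99.3 percentile of all genes. Itga3 (chr11:95044474-95076801, minus strand) had 19.5 in KO, against 4.66 in WT (1.76). Lamc1 had 7.92 in KO, against 1.32 in WT (1.73). In these 3 genes H3K27me3 was several-fold higher in KO, while H3K27ac as deposited was also higher in KO in both pairs. Itgb6 had 4.95 in KO, against 0.877 in WT (1.43). Lama5 had 13.9 in KO, against 6.41 in WT (0.95), and Itga4, a fibronectin and VCAM receptor subunit, had 19.8 in KO, against 10.6 in WT (0.81). Itgb7, with 10.8 in KO, against 6.19 in WT (0.67), Itgb8, with 9.46 in KO, against 5.59 in WT (0.63), and Itga2b, with 11.8 in KO, against 7.24 in WT (0.60), completed the higher genes.

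On the lower side, Itga2 (chr13:114833081-114932100, minus strand) had 1.81 in KO, against 11.7 in WT (-1.98), a ratio at the 0.36 percentile of all genes. Itgax, the dendritic cell alpha subunit, had 8.19 in KO, against 25.4 in WT (-1.47). Lamb1 had 7.59 in KO, against 19.3 in WT (-1.19). In Itga2 and Lamb1, lower H3K27me3 in KO stood beside H3K27ac that was higher in KO, in both pairs past 1.5-fold for Lamb1 and in the unmarked pair for Itga2. Itgam had 3.68 in KO, against 8.06 in WT (-0.88), Itga9 had 12.8 in KO, against 21.0 in WT (-0.65), and Itgb2 had 2.31 in KO, against 4.28 in WT (-0.60). Itga1 was listed at 0 in both H3K27me3 libraries. The highest H3K27me3 of the members in both genotypes was at 4 genes that stayed under 1.5-fold. Lamc3 had 76.1 in KO, against 87.6 in WT, and Itga11 had 42.8 in KO, against 64.7 in WT. Itga8, a kidney and smooth muscle alpha subunit, had 40.5 in KO, against 32.2 in WT, and Itga7 had 25.5 in KO, against 38.04 in WT.

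Because H3K27me3 and H3K27ac were both high at Itga5 and Itga3 in KO, the members were set into classes by whether each mark reached the 75th percentile of all genes in its library. The classes were chosen after the values were seen, and Itga5 and Itga3, which prompted them, are counted in them. Taken singly, the level was reached in KO by 15 of 37 members in unmarked H3K27ac, 15 in vitro H3K27ac and 14 in H3K27me3. In WT it was reached by 12, 13 and 12. Each mark alone was thus also frequent at this level among the members. The counts with both marks were not compared with what these single-mark counts would give. The shares below therefore do not show that the marks coincide at members more often than their single frequencies would give. In KO, 6 of 37 members (16.2%) had both marks at that level using unmarked H3K27ac, beside 3.13% of all genes, and 7 (18.9%) using the vitro library, beside 2.70%. The 6 were Itga3, Itgb4, Itga5, Itgb3, Itgb7 and Lama5, and Itga2b joined them in the vitro library. In WT, Itga2 and Itgb3 alone had both marks, 5.41% of members beside 2.78% of all genes in the unmarked pair and 1.95% in the vitro pair. At the 70th percentile the unmarked and vitro counts were 8 and 9 in KO (all genes 5.33% and 4.56%), against 4 and 4 in WT (4.95% and 3.43%). At the 80th they were 4 and 4 in KO (1.59% and 1.39%), against 0 and 1 in WT (1.37% and 0.983%). These libraries come from whole cell populations, so whether both marks were on the same chromatin cannot be told apart from mixtures of cells.

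**Figure D4:**
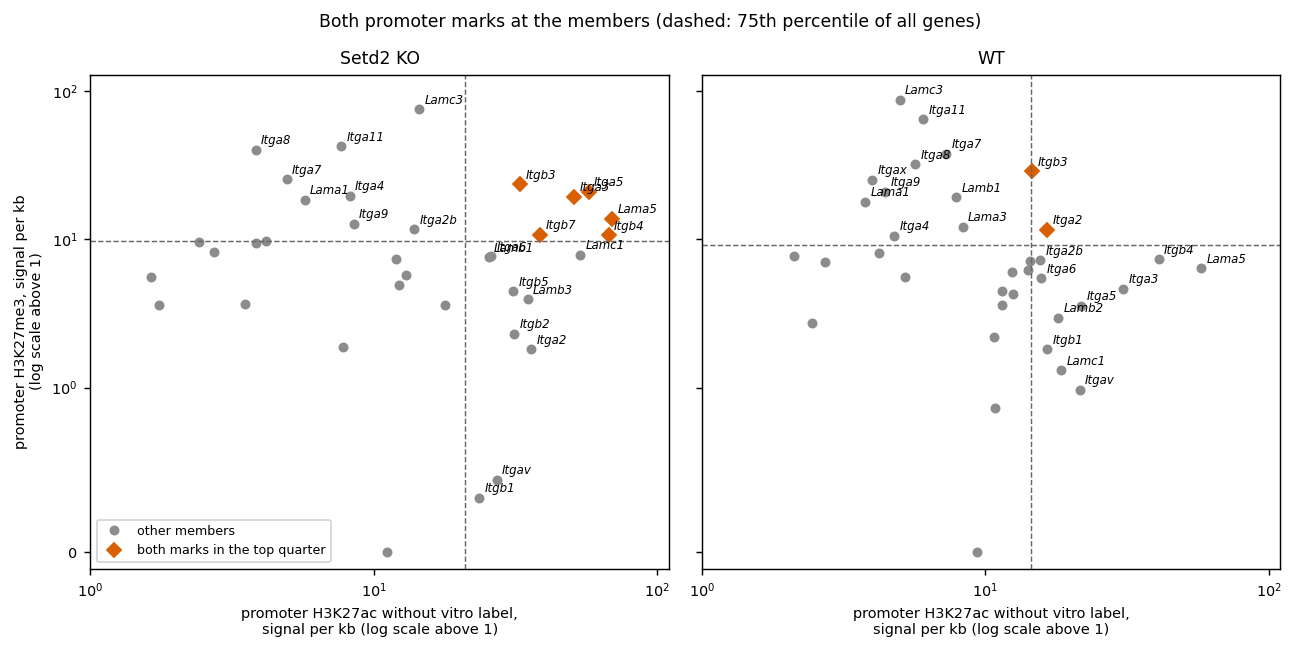
Promoter unmarked H3K27ac (x axis) and H3K27me3 (y axis) of the named members in KO (left) and WT (right), as signal per kilobase on axes that are logarithmic above 1; dashed lines are the 75th percentile of all genes in each library. The upper right field holds Itga3, Itgb4, Itga5, Itgb3, Itgb7 and Lama5 in KO and Itga2 and Itgb3 in WT.

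H3K27me3 alone reached the 75th percentile in both genotypes at Itga7, Itga11, Itga8, Itga4, Itga9, Lama1 and Lamc3, using unmarked H3K27ac. H3K27ac alone did so in both genotypes at Itga6, Itgav, Itgb1 and Lamc1. Across the 37 members the levels of unmarked H3K27ac and H3K27me3 had a Spearman correlation of -0.01 in KO and -0.43 in WT, beside -0.003 and -0.05 over all genes. With the vitro libraries it was -0.10 in KO and -0.29 in WT, beside -0.04 and -0.15 over all genes. Each correlation compares single libraries over genes that are not independent.

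H3K36me3, the mark that Setd2 lays down, was read over the gene bodies of 29 members. Of these, 4 were at least 1.5-fold higher in KO, where 27.1% of 15475 genes were, and 8 were lower, where 30.3% were. The member median log2 ratio was -0.22, beside -0.08 over all genes. Neither member share was above that of all genes. Over all genes the shares higher and lower in KO were similar, and the library median was 3.01 in KO, against 2.73 in WT. No general loss of H3K36me3 in KO was thus seen in the deposited values, whose scaling could not be checked. Whether differences of single genes depend on Setd2 was not tested. The spread of the ratio depended on gene length. Its SD over all genes was 3.23 for spans under 3 kb and 0.44 for spans of 100 kb or more, and the share past 1.5-fold was 90.9% and 14.8% in the same classes. Members span 10.8 to 640 kb with a median of 64.4 kb, and 33 of 37 reach 20 kb. Of the members read, 2 of 4 between 3 and 20 kb were past 1.5-fold (all genes 74.5%), 4 of 7 between 20 and 50 kb (54.1%), 4 of 8 between 50 and 100 kb (34.6%) and 2 of 10 above that (14.8%).

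**Figure D5:**
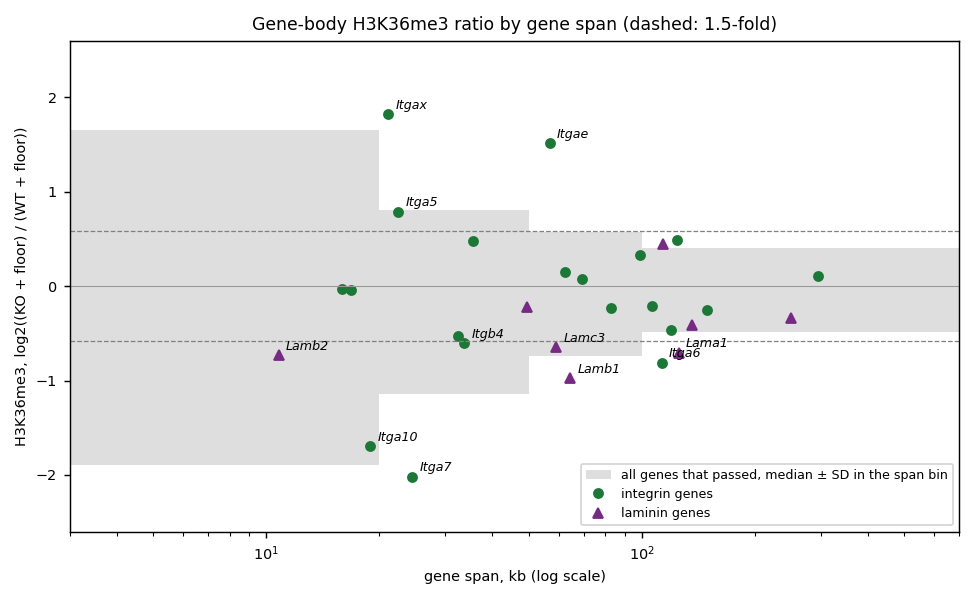
Log2 ratio of gene-body H3K36me3, KO over WT, against gene span in kilobases on a log axis for the named members read, over a band of the median ± 1 SD of all genes in each span class, where the SD is 1.77 from 3 to 20 kb and 0.44 from 100 kb. Dashed lines mark 1.5-fold, circles are integrins and triangles laminins. Itga7 and Itga10 lie lowest and Itgax highest.

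The lowest H3K36me3 ratios were at Itga7, with 0.029 in KO, against 8.21 in WT (-2.02), and Itga10, with 0.784 in KO, against 8.46 in WT (-1.69). Lamb1 had 3.34 in KO, against 9.11 in WT (-0.97), and Itga6 had 3.93 in KO, against 8.92 in WT (-0.81). Lamb2 had 5.10 in KO, against 10.2 in WT (-0.73), and Lama1 had 6.90 in KO, against 12.9 in WT (-0.71). The hemidesmosomal partner of Itga6, Itgb4, had 10.7 in KO, against 17.7 in WT (-0.61), and Lamc3 had 3.73 in KO, against 7.34 in WT (-0.65). Itga3, the remaining laminin-binding subunit, had 4.66 in KO, against 7.88 in WT (-0.53). All 4 laminin-binding subunits thus had less H3K36me3 in KO, 3 of them past 1.5-fold, beside 30.3% of all genes. Of these 3, Itga7 alone kept its call under every alternative in which it was read. With the filter at the median of positive values Itga7 was not read, and its KO value was under the floor of 2.66. Itgb4 was at -0.53 centred, -0.43 quantile normalized and -0.32 with the trend removed. Itga7 and Itgax, at the ends of the range, were below the median of all genes in every H3K27ac library. Itga10 and Itgae, next to them in the range, were above it in unmarked WT, with H3K27ac of 10.8 and 11.4. The higher side included Itgax, with 14.8 in KO, against 2.29 in WT (1.82), Itgae, the alpha subunit of intraepithelial lymphocytes, with 6.16 in KO, against 0.431 in WT (1.51), and Itga5, with 11.9 in KO, against 5.78 in WT (0.79). Itga5 was the only member past 1.5-fold higher in KO in H3K36me3, in H3K27me3 and in unmarked H3K27ac. Lamb1 was lower in KO in both H3K36me3 and H3K27me3 and higher in both H3K27ac pairs.

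Within a genotype the vitro library was compared with the library lacking that label. In KO 32 members were read, 5 were higher in the vitro library, where 16.1% of 18110 genes were, and 10 were lower, where 25.6% were. In WT 34 were read, 11 were higher, where 29.9% of 19641 genes were, and 5 were lower, where 16.5% were. The member medians were 0.06 in KO and -0.01 in WT, beside -0.11 and 0.20 over all genes. Itga3, Itgav, Itga2b and Itgb2 were higher in the vitro library in both genotypes, with log2 ratios from 0.68 to 1.96. Lama4, the alpha chain of vessel and muscle laminins, was lower in the vitro library in both, at 2.86 vitro and 13.0 unmarked in KO (-1.49) and 2.82 vitro and 14.4 unmarked in WT (-1.63). Endothelial markers, 5 in number, summed to 15.6 vitro and 30.5 unmarked in KO and to 14.7 vitro and 39.7 unmarked in WT, and the fibroblast markers, 7 in number, to 56.6 and 100.2 in KO and to 21.7 and 60.9 in WT. Their part in the Lama4 difference was not tested.

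The genes that act with integrins and laminins were counted in 3 lists. Of 31 adaptors and kinases that link integrins to actin and signalling, all were read in unmarked H3K27ac, 18 were higher in KO and 1 was lower (median log2 ratio 0.62), beside the 33.3% and 11.5% of all genes given above. The median percentile of this list among all genes was 84.9 in KO, against 87.2 in WT, so its rank was not higher in KO. The 75th percentile of all genes was itself 20.9 in KO, against 14.5 in WT. The part of this offset in the count was not tested. The higher genes included Parvb, an actin-binding adaptor, with 29.3 in KO, against 10.8 in WT, and Ptk2, the focal adhesion kinase, with 60.8 in KO, against 24.9 in WT. Nedd9, a docking protein of focal adhesions, was the lower one, with 1.42 in KO, against 10.1 in WT. In the vitro pair 6 of 30 were higher and 3 lower (median 0.13), beside 10.9% and 13.6% of all genes, with Fermt2, a kindlin that activates integrins, at 20.3 in KO, against 8.51 in WT, and Fermt1, the epithelial kindlin, at 23.7 in KO, against 58.5 in WT. In H3K27me3 11 of 24 were higher and 3 lower (median 0.46), beside 30.1% and 16.8% of all genes, led by Ptk2 at 10.6 in KO, against 0.438 in WT and by Bcar1, a scaffold phosphorylated at adhesions, at 11.6 in KO, against 1.53 in WT. Ptk2 thus had more H3K27me3 and more unmarked H3K27ac in KO, as Itga5 did. In H3K36me3 2 of 29 were higher and 2 lower (median -0.15), beside 27.1% and 30.3% of all genes, with Bcar1 at 2.10 in KO, against 16.5 in WT.

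Among 23 other genes of the basement membrane and hemidesmosome, 4 of 17 read were higher and 2 lower in unmarked H3K27ac (median 0.28), beside 33.3% and 11.5% of all genes. In the vitro pair 3 of 20 were higher and 4 lower (median -0.05), beside 10.9% and 13.6% of all genes. Nid2, which links laminin to collagen IV, was lower in both pairs, at 4.38 in KO, against 13.5 in WT, and 1.26 in KO, against 9.08 in WT, in the vitro pair. Dst, the hemidesmosomal plakin, was higher in both, at 13.4 in KO, against 6.87 in WT, and 34.9 in KO, against 8.96 in WT, in the vitro pair. Sparc, a collagen-binding matrix protein, was likewise higher in both, at 50.01 in KO, against 24.2 in WT, and 45.6 in KO, against 12.2 in WT, in the vitro pair. In H3K27me3 8 of 23 were higher and 3 lower (median 0.20), beside 30.1% and 16.8% of all genes, and in H3K36me3 3 of 20 were higher and 3 lower, beside 27.1% and 30.3%.

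Of 21 matrix and cell surface ligands of integrins, 6 of 19 read were higher and 1 lower in unmarked H3K27ac (median 0.27), beside 33.3% and 11.5% of all genes. In the vitro pair 8 of 19 were higher and 1 lower (median 0.39), beside 10.9% and 13.6% of all genes. Thbs1, an adhesive glycoprotein, had 53.0 in KO, against 14.5 in WT, and 73.9 in KO, against 14.9 in WT, in the vitro pair. Fn1, fibronectin and so the ligand of Itga5, had 31.0 in KO, against 8.43 in WT, and 45.6 in KO, against 17.1 in WT, in the vitro pair. The single lower ligand of the vitro pair was Cdh1, the epithelial cadherin bound by Itgae, with 5.72 in KO, against 24.0 in WT. Thbs1 and Fn1 had more H3K27ac in both KO libraries, as did the receptor subunit Itga5 by a smaller ratio in the vitro pair. In H3K27me3 3 of 21 were higher and 3 lower (median 0.31), beside 30.1% and 16.8% of all genes, including Vcam1, the ligand of Itga4, with 0.990 in KO, against 4.82 in WT. In H3K36me3 3 of 17 were higher and 11 lower (median -0.68), beside 27.1% and 30.3% of all genes. Ccn2, a matricellular protein, was listed at 0 in KO, against 15.1 in WT, and Spp1, osteopontin, at 0 in KO, against 12.8 in WT. Both are short genes, a class whose H3K36me3 ratios spread widely.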

How the data were processed

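The data were 8 CUT&Tag libraries of mouse pancreatic tumour cells, 1 per mark, setting and Setd2 genotype, grouped by their titles. The authors deposited 1 table of 25450 rows with coverage signal per promoter (H3K27ac, H3K27me3) or gene body (H3K36me3). Bowtie2 2.4.2, MACS2 2.2.7.1, HOMER and build mm10 are named in the submitters' processing notes. The sources used here give no order, settings, window width or scaling. The deposited values carry no counts, so depth and counting error are unknown, and the scaling between libraries could not be checked. Overlapping promoters and near-identical loci share signal in such values.

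Signals were multiplied by 1000. Where a gene had several rows, that with the highest mean was kept (213 others dropped, none of a member), leaving 25237 genes, and all 37 members matched a RefSeq symbol. The floor, filter, log2 ratio and 1.5-fold count are defined where first used. No test was possible with 1 library in each group, so members are set beside all genes read in the same comparison. Values of both libraries are given for members past 1.5-fold in a pair and for the 3 highest and 3 lowest by WT H3K27ac, and up to 3 genes are named per other list and comparison. Some further members are given because a comparison turns on them. Members, roles and gene lists were chosen with earlier results of these data known. Alternatives were another pseudocount, filter, scaling and row joining, removal of the trend with level, long genes only for H3K36me3, and leaving out 3 members within 3 kb of another start. Results of 1 member enter the counts but are not reported here, and the figures leave it out. The code was tested on simulated data. It ran in Python 3.11.15 with numpy 2.4.6, pandas 2.3.3, scipy 1.17.1 and matplotlib 3.10.9.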

Additional observations from a re-analysis of the deposited data

Results flagged for a closer look

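In 9 of the 33 members read in both H3K27ac pairs, KO over WT ran in opposite directions in the pairs with 1 of the ratios past 1.5-fold, as in 25.5% of 17300 genes. With 1 library per group, the difference between the pairs was not tested. Among those named here, the vitro log2 ratio minus the other was 1.06 for Itga7, 1.29 for Itga2b and 0.88 for Itgb8, which were higher in KO only in the vitro pair. It was -1.57 for Itgb3, -1.42 for Lamc3 and -0.69 for Itgb4, which were past 1.5-fold higher in KO only in the unmarked pair. For Lama1 it was -0.98 and for Itga1 -0.85, and both were past 1.5-fold lower in KO only in the vitro pair. Across the 33 members the ratios of the pairs had a Spearman correlation of 0.37 and a Pearson correlation of 0.41, beside 0.21 and 0.21 over all genes. The pairs share no library.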

How the results depend on the processing

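No paired analysis was possible because each group had 1 library. The 57 calls of single members were recomputed under up to 9 alternatives each, which gave 494 values: 426 kept the direction and the side of 1.5-fold, 64 fell under 1.5-fold and 4 reversed. The 4 were Itga3 and Itgb4 in unmarked H3K27ac, at -0.0135 and -0.0532 with quantile normalization and -0.11 and -0.14 with the trend removed. Calls kept under every alternative in which the gene was read numbered 6 of 16 in unmarked H3K27ac, 7 of 14 in the vitro pair, 8 of 15 in H3K27me3 and 3 of 12 in H3K36me3. They were Itgb2, Itgb5, Itgb7, Lamb1, Lamb3 and Lamc1 in both H3K27ac pairs, with Itga2b in the vitro pair; Itga2, Itga3, Itga4, Itga5, Itgax, Lama5, Lamb1 and Lamc1 in H3K27me3; and Itga7, Itga10 and Itgax in H3K36me3. A pseudocount 5 times larger, which shrinks every ratio, left 1 member higher and 2 lower in H3K36me3, 9 higher and 0 lower in unmarked H3K27ac, 0 lower in the vitro pair, and 5 higher and 3 lower in H3K27me3. A pseudocount 5 times smaller gave 7 higher in H3K36me3. With the filter at the median of positive values, which reads fewer genes, 0 were lower and the median was 0.67 in unmarked H3K27ac, and 1 was lower and the median was 0.34 in the vitro pair. Centring on the median of all genes gave 5 lower and a median of 0.0306 in unmarked H3K27ac, 2 lower in the vitro pair, and a median of -0.11 in H3K27me3. Quantile normalization gave a median of 0.0557 in unmarked H3K27ac, 2 lower in the vitro pair, a median of -0.0636 in H3K27me3, and a median of 0.10 for vitro over the other setting in WT. Removing the trend with level gave 5 lower in H3K36me3, 2 lower and a median of 0.12 in unmarked H3K27ac, 2 lower in the vitro pair, and a median of -0.0479 in H3K27me3. The scalings of the vitro over unmarked comparison and the percentiles for both marks were chosen after seeing the data. The cause of the other shifts was not tested. Depth is unknown, so values near the floor have no stated precision.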
